A study of Mus musculus with 2 samples.

Results

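Among microglia sorted from wildtype mice after systemic inflammation, 80 cells were set apart by transcripts of inflammatory cytokines and chemokines. These cells carried some, rarely all, of the transcripts of interleukin 1, interleukin 12, tumour necrosis factor, CCL3 and CCL4. They were 5.61% of the 1427 cells of that library (exact 95% interval 4.47 to 6.93), out of 1747 cells in the series. The cells were chosen by their own counts: a member had at least 3 UMIs (unique molecular identifiers, each marking 1 captured transcript) summed over the 6 genes Il1a, Il1b, Il12b, Tnf, Ccl3 and Ccl4, and fewer than 5 UMIs of Saa3, an acute-phase gene that marks another LPS-responsive population. The levels of these 7 genes are therefore a description of the choice and not a result. All other genes were read against 870 comparison cells of the same library, which had fewer than 5 Saa3 UMIs and a sum of 0.

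The mice were PARK7/DJ-1 KO animals of a gene-trap line on a C57BL/6NCrl background and their wildtype littermates, aged 3 to 4 months per the study's methods. Both genotypes received a single intraperitoneal dose of lipopolysaccharide (LPS, a bacterial wall component) of 4 μg/g body weight 24 h before the brain was taken. CD11b+CD45int cells were sorted and captured by Drop-seq, which tags the 3' ends of transcripts on barcoded beads, and each genotype gave 1 library that pooled 2 mice, 1 female and 1 male. No untreated library was used here, so that every cell described had been exposed to LPS. With 1 library per genotype there is no replicate and no test was made: the 95% intervals below (exact Poisson for levels, exact conditional binomial for ratios, exact Clopper-Pearson for shares) cover counting error only and leave out the spread between cells and mice.

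Microglia are the resident macrophages of the brain. When LPS reaches them, Toll-like receptor signalling through MyD88 frees the transcription factor NF-kB from its inhibitors. NF-kB then switches on interleukins, TNF and chemokines together with the genes of its own inhibitors, such as Nfkbia and Tnfaip3. IL-1α and IL-1β act on the interleukin 1 receptor, Il12b encodes the p40 chain of IL-12 and IL-23, TNF acts on its own receptors, and CCL3 and CCL4 attract other immune cells. Ccl2 and Ccl12 encode chemokines for CCR2, the receptor of inflammatory monocytes.

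The promoters of a few of these genes are shown because their transcripts were counted in the same cells. They are RefSeq windows of 250 bases before to 50 bases after the annotated start (build GRCm38.p6), written 5' to 3' on the strand of the gene, with matches on either strand in capitals to the NF-kB-type motif GGNNTTTCC, the AP-1-type motif TGANTCA and the TATA-type motif TATAAA. The Il1b window lies at chr2:129371090-129371389, minus strand, and that of Tnf at chr17:35201958-35202257, minus strand. The Ccl12 window lies at chr11:82101595-82101894, plus strand, that of Nfkbia at chr12:55492598-55492897, minus strand, and the first of the 2 Tnfaip3 windows at chr10:19015361-19015660, minus strand.
Il1b: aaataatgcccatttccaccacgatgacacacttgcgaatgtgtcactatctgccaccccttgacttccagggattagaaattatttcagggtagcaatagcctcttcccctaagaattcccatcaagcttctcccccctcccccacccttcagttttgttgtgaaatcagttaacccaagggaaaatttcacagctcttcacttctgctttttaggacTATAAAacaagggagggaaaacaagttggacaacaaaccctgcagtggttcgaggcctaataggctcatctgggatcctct
Tnf: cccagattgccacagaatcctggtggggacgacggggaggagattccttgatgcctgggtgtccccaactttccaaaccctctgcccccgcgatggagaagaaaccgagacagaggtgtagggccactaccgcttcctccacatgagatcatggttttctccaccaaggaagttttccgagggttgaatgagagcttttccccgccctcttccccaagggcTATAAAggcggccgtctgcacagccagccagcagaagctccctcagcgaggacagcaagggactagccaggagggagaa
Ccl12: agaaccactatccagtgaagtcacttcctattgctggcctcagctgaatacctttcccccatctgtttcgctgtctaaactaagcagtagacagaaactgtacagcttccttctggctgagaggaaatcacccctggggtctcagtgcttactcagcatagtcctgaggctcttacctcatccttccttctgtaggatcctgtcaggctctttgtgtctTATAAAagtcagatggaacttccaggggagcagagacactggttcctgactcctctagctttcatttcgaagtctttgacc
Nfkbia: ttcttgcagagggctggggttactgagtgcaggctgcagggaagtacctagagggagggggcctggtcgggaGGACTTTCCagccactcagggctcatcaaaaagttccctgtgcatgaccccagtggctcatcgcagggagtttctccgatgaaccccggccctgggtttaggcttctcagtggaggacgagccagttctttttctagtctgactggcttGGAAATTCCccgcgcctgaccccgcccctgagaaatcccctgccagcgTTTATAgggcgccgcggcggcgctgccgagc
Tnfaip3: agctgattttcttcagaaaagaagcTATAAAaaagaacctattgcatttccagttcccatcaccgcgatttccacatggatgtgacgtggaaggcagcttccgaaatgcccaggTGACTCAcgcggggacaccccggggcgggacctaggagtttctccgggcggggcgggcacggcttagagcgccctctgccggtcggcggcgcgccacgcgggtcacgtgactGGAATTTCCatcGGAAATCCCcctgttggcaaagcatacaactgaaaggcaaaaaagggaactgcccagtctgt

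Il1b, Tnf and Ccl12 each held the TATA-type motif, which began 31, 29 and 31 bases before the start. The window of Nfkbia held the NF-kB-type motif 178 and 29 bases before its start, and that of Tnfaip3 held it 24 and 12 bases before. Of 19 genes looked up (the 6 rule genes, the 10 highest genes outside the rule, Nfkbia, Tnfaip3 and Plek), 15 had a window. The NF-kB-type motif was in a window of 5 of them, Nlrp3, Ier3, Rel, Nfkbia and Tnfaip3, the TATA-type motif in 6 and the AP-1-type motif in 2, Il1a and Tnfaip3. Over all 32851 windows, 5.82% held the NF-kB-type, 7.81% the AP-1-type and 13.6% the TATA-type motif. None of the 5 rule genes with a window held these letters of the NF-kB-type motif. A match describes the sequence and no binding was measured.

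The wildtype library held 3063795 UMIs over 9999 barcodes and the KO library 684738 UMIs over 9999 barcodes, and 1427 and 320 barcodes had at least 500 UMIs and 100 genes and were taken as cells. Park7, the disrupted gene, had 1 UMI in the KO cells and 323 UMIs in 248 wildtype cells (162 CPM, UMIs per 1e6, 145 to 181), and members and comparison cells had the same level of it, 154 CPM each. No cell barcode was shared by the libraries. Within the wildtype library, however, 55 pairs of cell barcodes differed at 1 base only, 44 of them at the first base. They involved 102 cells, and across the pairs the Saa3 counts correlated (Pearson r = 0.90, on log2 of UMIs plus 1, as a description), and whether such a pair is 1 cell read under both barcodes was not tested further. Of these barcodes 9 were members, and 3 pairs consisted of 2 members each with like profiles, such as 26 and 6 Il1b UMIs beside 113 and 33 Ccl12 UMIs. Without the shallower barcode of each pair, 77 members of 1152 cells and 842 comparison cells were left.

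The members were microglial by their markers. The 10 microglial markers, among them P2ry12, Tmem119 and Cx3cr1, summed to 14225 CPM in members (13651 to 14817) and to 13968 CPM in comparison cells, and every one of the 80 members carried at least 2 UMIs of them. Monocyte markers reached 12.3 CPM in members against 55.9 CPM in comparison cells, with 5 of 7 markers, Ly6c2 and Ccr2 included, at 0 in members. Of the 8 neutrophil markers 5 were at 0 in members, S100a8 and S100a9 had 1 UMI each, and the remaining 43 UMIs were those of Csf3r, the receptor of granulocyte colony-stimulating factor, which brought the list to 277 CPM in members and 298 CPM in comparison cells. The 5 erythroid markers had 0 UMIs in members and 1 in comparison cells. Of 7 T or NK lymphocyte markers only 2 were listed in the table, with 0 UMIs in members and 1 in comparison cells, so that this list says little. Dendritic cell, border macrophage, B lymphocyte, astrocyte, oligodendrocyte, endothelial, neuronal and choroid plexus markers summed to between 6.15 and 92.3 CPM in members.

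Members were deeper than the cells they are set against, which follows in part from a rule on raw counts. Their median was 1609 UMIs and 962 genes (517 to 7643 UMIs), against 916 UMIs and 616 genes (503 to 9106 UMIs) in comparison cells. Among wildtype cells under the Saa3 limit, the share of members was 2.72% (16 of 589) at 500 to under 1000 UMIs, 7.82% (34 of 435) at 1000 to under 2000 UMIs and 18.4% (30 of 163) at 2000 UMIs or more. After each cell had been thinned to 500 UMIs, 26 of the 1187 cells under the limit kept a sum of 3 or more (2.19%, 1.44 to 3.19), as against 6.74% before thinning. The part of RNA free in the suspension in these counts was not tested. Barcodes with up to 100 UMIs, too shallow to be taken as cells, had 402 CPM of the 6 genes (335 to 479), against 565 CPM in the cells under the Saa3 limit. Droplets of the same depths drawn from the profile of those barcodes alone would have put 31.7 cells (2.67%) past the rule, and 0.116% at 500 UMIs per cell, so that members with a sum of 3 or 4 cannot each be told apart from it.

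In the KO library 1 of 320 cells met the same rule (0.312%, 0.00791 to 1.73), and that count did not change at 500 UMIs. This KO cell had 1036 UMIs, of which 7 were Ccl3 and 16 Ccl4, and it held 0 UMIs of Il1a, Il1b, Il12b, Tnf, Ccl12, Ccl2, Gpr84 and Nfkbia. Over all KO cells Il1b had 1 UMI, Il12b 0, Tnf 5, Ccl3 10, Il1a 17 and Ccl4 22. Barcodes with up to 100 UMIs of the KO library held 80.5 CPM of the 6 genes. None of its 34 cells with 2000 UMIs or more met the rule, a count that allows a share of up to 10.3%. Genotype and library cannot be told apart here. Wildtype cells above the Saa3 limit met the sum in 32 of 240 cases (13.3%, 9.30 to 18.3), and in 10 of 240 (4.17%, 2.02 to 7.53) at 500 UMIs.

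**Figure D1:**
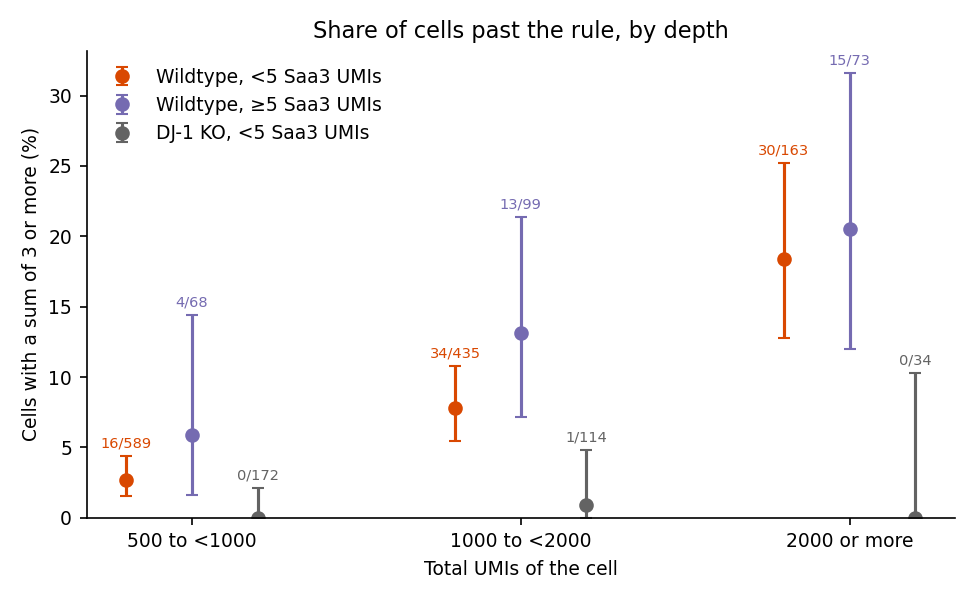
Share of cells with a sum of 3 or more UMIs of the 6 rule genes (y axis, percent) by the total UMIs of the cell (x axis), for wildtype cells with fewer than 5 or at least 5 Saa3 UMIs and for DJ-1 KO cells; points are shares, bars exact 95% intervals and the numbers cells. In wildtype cells under the limit the share goes from 2.72% to 18.4% with depth, and in KO cells 1 cell in all met the rule.

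The 6 genes were spread unevenly over the members. The sums ranged from 3 to 42 UMIs with a median of 4.50, 29 members lay at the lower edge with 3 UMIs, and 55 cells just outside it had 2. The members held 563 of the 1281 UMIs that the 6 genes had in all wildtype cells (44.0%), from 27.6% of Ccl3 to 66.1% of Il1b. Only 1 of the 6 genes was found in 19 members, 2 genes in 28, 3 genes in 23 and 4 or more in 10. Interleukins made up most of the sum in 40 members, chemokines with Tnf in 35, and 5 members had equal amounts.

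Il1b had 213 UMIs in 45 members and up to 26 in a cell. Tnf had 65 UMIs in 37 members (up to 7) and Il1a 52 UMIs in 34 members (up to 3), both at low counts spread over many cells. Ccl3 and Ccl4, which lie close together in the genome and are alike in sequence, so that reads could be shared between them, had 89 and 95 UMIs in 32 members each, with 16 members carrying both. Il12b differed from the others in its distribution. It had 49 UMIs in 8 members only, and 20 UMIs (40.8%) were in 1 cell of 1921 UMIs. The member with the highest sum was also the shallowest, with 517 UMIs in all, of which 13 were Il12b, 11 Il1b, 10 Ccl3, 5 Ccl4, 2 Tnf and 1 Il1a. The 5 members with the highest sums held 28.6% of all UMIs of the 6 genes.

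**Figure D2:**
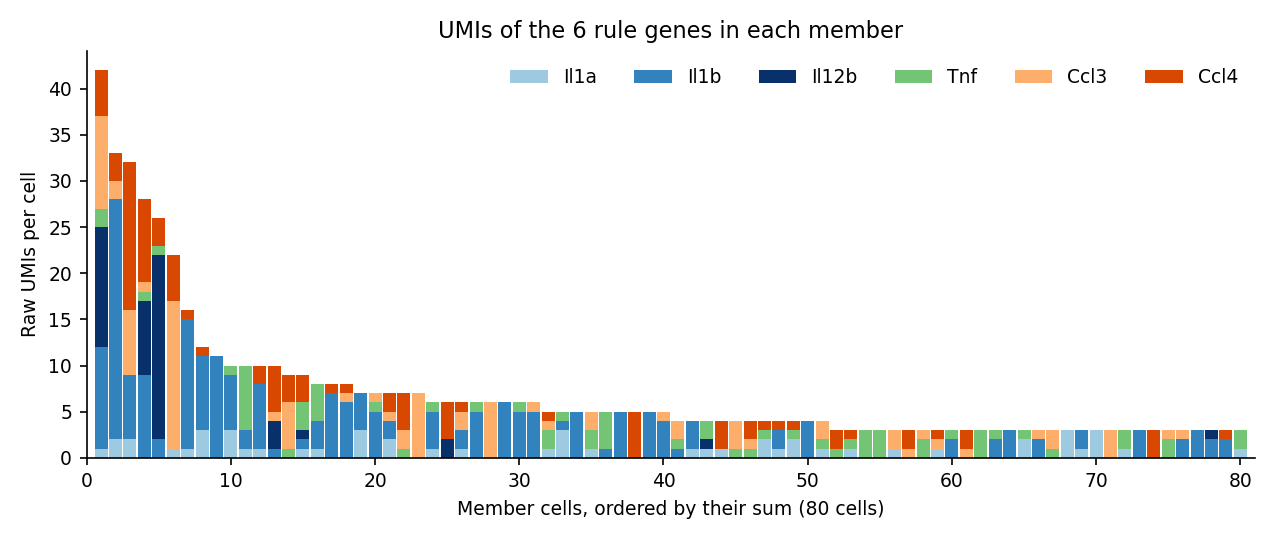
Raw UMIs of the 6 rule genes (y axis) in each of the 80 members (x axis, ordered by sum), stacked by gene. The sums fall from 42 to 3, Il12b is seen in 8 cells, and most cells mix an interleukin with a chemokine or Tnf.

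As a further description of the rule genes, each was also read in cells picked by the other 5 genes alone, all cells thinned to equal depth. Genes of the rule were chosen together, with earlier results of these data known. The ratios below therefore describe that choice and cannot decide whether the genes go together beyond it. The ratios of Ccl3 and Ccl4 could also in part rest on reads shared between them. Cells with at least 3 UMIs of the other 5 had 4.74-fold the Il1a level of cells with none of them (1.53 to 12.6), 8.87-fold the Tnf level (4.32 to 17.6), 12.1-fold the Il1b level (6.95 to 20.7), 13.7-fold the Ccl4 level (6.95 to 27.2) and 15.5-fold the Ccl3 level (7.94 to 30.5). The ratio for Il12b was 88.6 (26.9 to 459.7) and rests on 24 UMIs in 4 cells. Members carried both an interleukin and a chemokine or Tnf in 47 of 80 cells, an interleukin only in 15 and chemokines or Tnf only in 18.

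The remaining transcriptome was compared after the 7 rule genes had been removed. Every cell was thinned at random to 450 UMIs (36000 UMIs in members, 391500 in comparison cells), and the unthinned levels (161927 and 983059 UMIs) are given beside it, since 1 UMI in the thinned members amounts to 27.8 CPM. Levels in CPM are per 1e6 UMIs without the rule genes and, where not said otherwise, unthinned, and a gene is called higher or lower at a 1.5-fold ratio of members over comparison cells. Of the 2984 genes with at least 30 thinned UMIs, 520 were at least 1.5-fold higher in members (17.4%) and 792 at least 1.5-fold lower (26.5%). Unthinned, 211 (7.07%) were higher and 345 (11.6%) lower. Genes that reach 30 UMIs only through their members had to differ, and of the 2737 genes that reached it in comparison cells alone 396 (14.5%) were higher and 770 (28.1%) lower. Counts of calls in the lists below are given first over all tested genes and then over those that reached the filter in comparison cells alone, and are to be read against these shares. The calls were shared by both readouts for 139 and 239 genes, and the median log2 ratio of all tested genes was 0.05 at 450 UMIs and 0.01 unthinned.

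Chemokines outside the rule were among the highest genes. Ccl12 had 922 UMIs in 65 of 80 members, with a lowest, median and highest count of 0, 6 and 113 UMIs per cell, whereas comparison cells had 1541 UMIs in 358 of 870 cells, with a median of 0 and a highest count of 33. Most members carried Ccl12 and most comparison cells did not, although the ranges overlapped. Its level was 5694 CPM in members and 1568 CPM in comparison cells, 3.63-fold higher unthinned (3.34 to 3.94) and 3.55-fold at equal depth (3.02 to 4.15). Without the member of 113 UMIs the log2 ratio at equal depth was 1.73 instead of 1.83.

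Ccl2 had 123 UMIs in 41 members and a median of 1 per cell, against 244 UMIs in 149 comparison cells and a median of 0. It was 3.06-fold higher unthinned (2.44 to 3.82) and 3.32-fold at equal depth (2.11 to 5.08). Ccl7, of the same gene cluster, had 16 UMIs in 6 members and 14 UMIs in all comparison cells, a ratio of 6.94 (3.17 to 15.3). The 3 genes are close paralogs, so that part of their counts could belong to each other. Cxcl16, a membrane-bound chemokine and scavenger receptor, was found in 35 members and was 2.08-fold higher (1.53 to 2.81). Cxcl10, an interferon-responsive chemokine, had 44 UMIs in 10 members, 24 of them in 1 cell, and Cxcl13 had 51 UMIs in a single member. Ccl5 (358 and 316 CPM, ratio 1.13) and Ccl6 (1.21, 0.522 to 2.52) lay near the comparison level. Of the 7 tested genes of this list, 4 were higher and 0 lower at equal depth, 3 and 0 unthinned, with median log2 ratios of 1.26 and 0.44. Without Tgfb1, which reached the filter only through the members, it was 3 and 0 of 6 in both readouts. Summed, the list was 3.0-fold higher unthinned (2.82 to 3.20) and 3.10-fold at equal depth (2.73 to 3.50).

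Genes of the NF-kB pathway were higher as a group. Of 10 tested genes, 7 were higher and 1, Nfkb1, lower at equal depth, 8 and 0 unthinned, but Tnfaip2, with 17 thinned UMIs in members and 20 in comparison cells, reached the filter only through the members, which leaves 6 and 1 of 9, and 7 and 0 unthinned. The 10 genes had median log2 ratios of 1.45 and 0.88, and the summed level of the list was 2.48-fold (2.12 to 2.89) and 2.02-fold higher (1.86 to 2.20). Nfkbia, which encodes the inhibitor IκBα, whose promoter is shown above, was found in 69 of 80 members with a median of 3 UMIs and a highest count of 14, and in 475 of 870 comparison cells with a median of 1 and a highest count of 13. It amounted to 2019 CPM in members and 967 CPM in comparison cells, 2.09-fold higher unthinned (1.84 to 2.37) and 2.58-fold at equal depth. The cells overlapped over nearly the whole range of Nfkbia counts.

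Further genes of the pathway were higher in part, at lower counts. Ier3, an immediate NF-kB target that limits apoptosis, had 44 UMIs in 26 members and was 2.81-fold higher (1.92 to 4.06). Tnfaip3, which encodes the ubiquitin-editing inhibitor A20, had 28 UMIs in 19 members and was 3.21-fold higher (1.95 to 5.16), and Tnfaip2, a TNF-induced gene, was 3.87-fold higher (2.49 to 5.95). Tnfaip3 was not among the 10 tested genes and was chosen after its value was seen, and Tnfaip2 reached the filter only through the members. The adhesion molecule gene Icam1 was 2.07-fold higher (1.42 to 2.98), the survival gene Birc3 1.90-fold (1.11 to 3.15) and Nfkbiz, which encodes a nuclear IκB protein, 1.73-fold (1.08 to 2.67). Among the subunits, Rel was 1.63-fold higher (1.07 to 2.43) and Nfkb1 was at 1.07 unthinned (0.632 to 1.74) but at 0.410 at equal depth (0.0484 to 1.56, 2 UMIs in members). Bcl2a1b was 1.60-fold higher unthinned (1.13 to 2.23) and at 1.05 at equal depth (0.372 to 2.42), and its near-identical relative Bcl2a1a was at 0.991 unthinned, so that their split is uncertain.

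**Figure D3:**
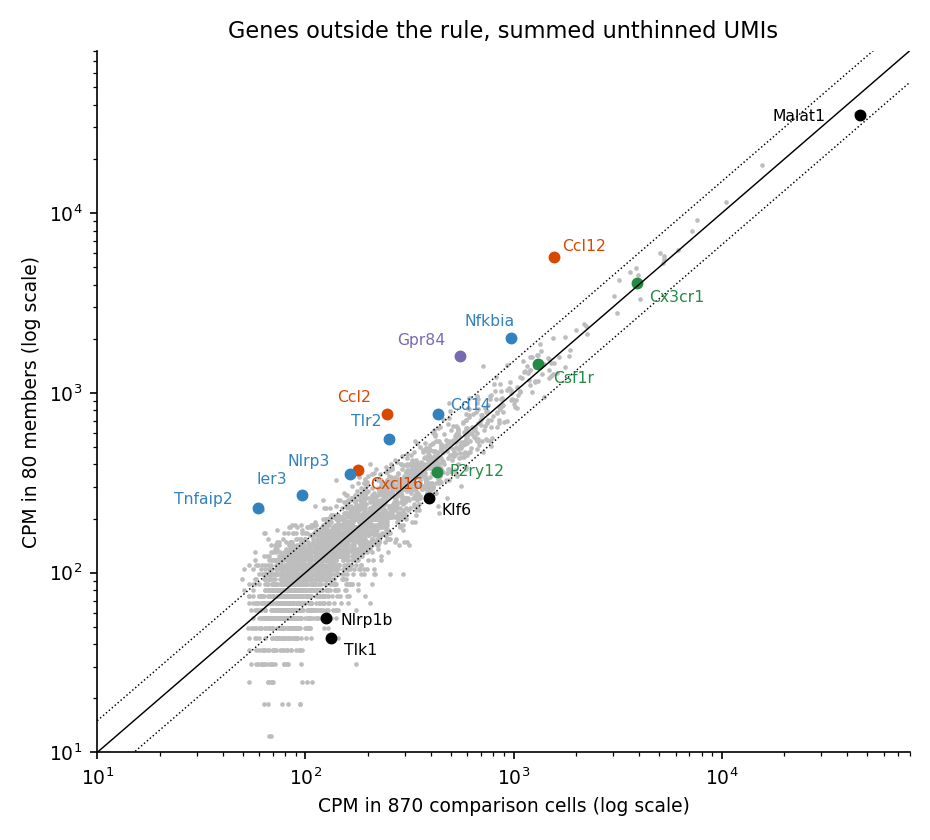
Level of each of 2984 genes outside the rule in the 80 members (y axis, CPM, log scale) against the 870 comparison cells (x axis, CPM, log scale), from summed unthinned UMIs; the solid line marks equal levels and the dotted lines a 1.5-fold difference. Ccl12, Ccl2, Gpr84 and Nfkbia lie above the upper dotted line, and Cx3cr1 and Csf1r near the line of equal levels.

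Sensing and scavenging genes were higher in part. Gpr84, a receptor for medium-chain fatty acids that LPS induces in macrophages, was found in 64 of 80 members with a median of 3 UMIs (0 to 19), and in 322 of 870 comparison cells with a median of 0 (0 to 9). Its level was 1606 CPM against 553 CPM, 2.90-fold higher unthinned (2.49 to 3.37) and 3.96-fold at equal depth (3.0 to 5.18). Tlr2, the receptor of bacterial lipoproteins, had 90 UMIs in 49 members and was 2.21-fold higher unthinned (1.72 to 2.83), while its log2 ratio at equal depth was 1.57 but 0.30 with another random seed, under the threshold of a call. Cd14, the LPS co-receptor, had 124 UMIs in 47 members and was 1.77-fold higher (1.43 to 2.16). Cd14 stood at 1.27 (0.873 to 1.80) among cells with Xist UMIs only and at 1.58 (0.908 to 2.62) among those with Y-linked UMIs only. Tlr4 itself was at 0.911 with 9 UMIs in members (0.397 to 1.85), Myd88 at 1.08, and Il1r2, the decoy receptor of interleukin 1, at 0.992 (0.718 to 1.34). Of 14 tested receptor genes, 7 were higher and 3 lower at equal depth, but 2 and 0 unthinned. The 3 lower genes were Ifngr1 at 0.589 (0.360 to 0.913), Il10ra at 0.518 (0.0607 to 1.99) and Irak2 at 0.558 (0.0652 to 2.15). Unthinned, Ifngr1 was at 0.830 (0.689 to 0.994), Il10ra at 1.24 and Irak2 at 1.37. Ccr1, Irak4 and Myd88 reached the filter only through the members, which leaves 4 and 3 of 11, and 2 and 0 unthinned. The summed ratio was 1.16 unthinned (1.07 to 1.26) and 1.24 at equal depth (1.05 to 1.46), where another random seed gave a log2 ratio of 0.06.

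The acute-phase and scavenger genes gave 4 higher and 1 lower of 7 tested at equal depth, and 4 and 0 unthinned. Besides Gpr84 these were Sod2, the mitochondrial superoxide dismutase, at 1.82-fold (1.28 to 2.56), the syndecan gene Sdc4 at 1.65-fold (1.18 to 2.25) and the scavenger receptor Marco at 2.04-fold (1.49 to 2.75). Marco was concentrated in few cells, with 59 UMIs in 9 members, 20 of them in 1, and without that member its ratio was 1.38 (0.949 to 1.96). At equal depth it was at 1.79 (0.883 to 3.32). Within the cells with Xist UMIs only and those with Y-linked UMIs only, Marco lay lower in members, at 0.208 (0.0245 to 0.790, 2 UMIs in members) and 0.285 (0.0572 to 0.877, 3 UMIs). Lcn2, a siderophore-binding protein that is often found with Saa3, was the 1 lower gene, at 0.366 at equal depth (0.0980 to 0.961, 4 UMIs in members) but at 1.11 unthinned (0.808 to 1.49), and Msr1 was at 0.909 (0.784 to 1.05).

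Nlrp3, the inflammasome sensor, had the highest ratio at equal depth among genes with at least 50 thinned UMIs, 4.79 (2.90 to 7.72), but 2.15 unthinned (1.56 to 2.92), with 57 UMIs in 31 members. Thinned to 1000 UMIs, its log2 ratio was 0.80 instead of 2.28. Among cells with Y-linked UMIs only, Nlrp3 was at 0.712 unthinned (0.183 to 2.01, 4 UMIs in members), against 2.12 (1.30 to 3.37) among cells with Xist UMIs only. Casp4, the caspase that senses cytosolic LPS, was at 1.63 unthinned (0.959 to 2.67) with 4 thinned UMIs in members and 29 in comparison cells, so that it reached the filter only through the members. Pycard was at 1.02 (0.785 to 1.32) and Casp1 at 0.930 (0.620 to 1.35), and Nlrp1b was lower, at 0.444 (0.198 to 0.871). The list had 2 higher and 1 lower of 11 tested in both readouts, 1 and 1 of 10 without Casp4, and its summed ratio was 1.05 unthinned (0.932 to 1.18) and 1.31 at equal depth (1.05 to 1.63). The other genes among the 10 highest at equal depth were Parp14 at 3.24 and Psmc6 at 2.99, both of which were at 1.38 unthinned, where their intervals included 1. Of the 10 highest, Psmc6, Ier3 and Rel had 40, 43 and 41 thinned UMIs in comparison cells. They reached the 50 UMIs of this ranking only through the members.

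The homeostatic microglial genes were at the comparison level. Their summed level was 17854 CPM in members and 17691 CPM in comparison cells, a ratio of 1.01 (0.970 to 1.05). None of 16 tested genes passed 1.5-fold in either direction unthinned, and 4 were lower at equal depth, Tmem119 at 0.647 (0.305 to 1.22), P2ry13 at 0.604, Gpr34 at 0.506 and Ltc4s at 0.302. Unthinned, Cx3cr1, the fractalkine receptor, was at 1.04 (0.960 to 1.13), Csf1r at 1.10 (0.949 to 1.26), Tmem119 at 1.01 (0.791 to 1.29) and the purinergic receptor P2ry12 at 0.849 (0.635 to 1.12). The 14 tested lysosomal and disease-associated genes likewise had no call in either readout, with a summed ratio of 1.12 (1.08 to 1.16), Apoe at 1.29 (1.06 to 1.57) and Ctss at 1.10 (1.05 to 1.15).

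Interferon-responsive genes were mixed. Of 14 tested type I interferon genes, 4 were higher and 3 lower at equal depth and 2 and 2 unthinned, with a summed ratio of 1.11 unthinned (1.02 to 1.21) and 1.13 at equal depth (0.948 to 1.35). With a rule sum of at least 5 the log2 ratio of the list at equal depth was -0.34 instead of 0.19. Without Isg15 and Mx1, which reached the filter only through the members, 3 were higher and 3 lower of 12, and 1 and 2 unthinned. The shares over all genes that reached it in comparison cells alone are 14.5% and 28.1% at equal depth. Ifitm3 was 1.52-fold higher (1.19 to 1.94) and Xaf1 at 0.518 (0.277 to 0.895). The type II interferon and antigen presentation list had a summed ratio of 1.26 unthinned (1.19 to 1.33) and 1.38 at equal depth (1.23 to 1.54), with 4 higher and 2 lower of 13 tested at equal depth and 3 and 0 unthinned, or 3 and 2 of 12, and 2 and 0 unthinned, without Gbp3, which reached the filter only through the members. Among its genes the immunoproteasome subunit Psmb8 was 1.76-fold higher (1.26 to 2.42) and B2m was at 1.29 (1.19 to 1.39). The 2 lower genes at equal depth were Tap1 at 0.659 (0.0766 to 2.58) and Tap2 at 0.363 (0.00889 to 2.18). Unthinned, Tap1 was at 1.17 and Tap2 at 0.904. The invariant chain gene Cd74 was 1.66-fold higher unthinned (1.13 to 2.39) but at 0.989 at equal depth (0.309 to 2.45).

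The stress and metabolic lists differed less than the NF-kB list in their summed levels. The immediate early and dissociation list, which rises when tissue is taken apart, had 4 higher and 4 lower of 14 tested at equal depth and 3 and 3 unthinned, with a summed ratio of 1.16 (1.08 to 1.25) unthinned and 1.14 (0.975 to 1.33) at equal depth. Without Fos, which reached the filter only through the members, 3 were higher and 4 lower of 13 at equal depth, beside 14.5% and 28.1% over all such genes. Ier2 was 1.89-fold higher (1.37 to 2.57), Ier5 1.86-fold (1.25 to 2.70) and Junb 1.61-fold (1.25 to 2.04), while Jun was at 0.909 unthinned (0.737 to 1.11) and 0.547 at equal depth (0.303 to 0.918), Klf6 at 0.662 (0.470 to 0.912) and Rhob at 0.627 (0.412 to 0.920). The part that dissociation had in the member levels was not tested. Glycolytic genes had a summed ratio of 1.23 unthinned (1.09 to 1.39) and 1.39 at equal depth (1.09 to 1.76), where 4 were higher and 1 lower of 8 tested, or 3 and 1 of 7 without Pfkfb3, against 2 and 0 unthinned, or 1 and 0. Among them were Pfkfb3, a driver of glycolytic flux, at 2.02-fold (1.26 to 3.16; 10 thinned UMIs in members and 24 in comparison cells, so that it reached the filter only through the members) and Eno1 at 1.96-fold unthinned (1.46 to 2.61) but 1.36 at equal depth (0.598 to 2.73), with 11 of its 65 UMIs in 1 member. The antioxidant and iron list stood at 1.26 unthinned (1.17 to 1.34), with 2 higher and 0 lower of 6 tested, and at 1.51 at equal depth (1.32 to 1.72), with 4 higher and 1 lower. Prdx1 was at 1.54-fold unthinned (1.13 to 2.06), the thioredoxin gene Txn1 at 1.66-fold unthinned (1.06 to 2.52) and 2.56-fold at equal depth (1.02 to 5.63), and the ferritin gene Fth1 at 1.29 unthinned (1.19 to 1.40) and 1.61 at equal depth (1.38 to 1.87). The 1 lower gene was Mt1, at 0.640 at equal depth (0.203 to 1.55) and 0.695 unthinned (0.445 to 1.05). With another random seed the log2 ratio of the glycolytic list was 0.15 instead of 0.49 and that of the antioxidant and iron list 0.35 instead of 0.60. The log2 ratio of the glycolytic list was -0.13 among cells with Y-linked UMIs only and 0.71 among those with Xist UMIs only. Brakes on inflammatory mRNA had 1 higher and 2 lower of 7 tested at equal depth and 1 and 0 unthinned, the same calls over 6 genes without Trib1, with Zfp36 at 1.49 (0.982 to 2.21) and Socs3 at 1.53 unthinned (1.00 to 2.27) and 1.17 at equal depth. The 2 lower genes were Zfp36l2 at 0.158 (0.00393 to 0.908, 1 UMI in members) and Btg2 at 0.621 (0.165 to 1.66). Unthinned, Zfp36l2 was at 0.712 (0.430 to 1.12) and Btg2 at 1.33 (0.923 to 1.89).

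Nuclear-retained RNA stood below the comparison level in members, at a summed ratio of 0.761 (0.741 to 0.782), with 0 higher and 3 lower of 6 tested at equal depth and 0 and 1 unthinned. Malat1 made up 5682 of the 6010 UMIs of this list in members, so that the summed ratio is nearly that of Malat1. The 3 lower genes were Meg3, Neat1 and Xist, with 1, 5 and 22 thinned UMIs in members. Xist is expressed in female cells, and the library pooled a female and a male mouse. Malat1 stood at 35090 CPM in members and 46052 CPM in comparison cells, a ratio of 0.762 (0.741 to 0.783). Mitochondrially encoded genes were at 0.830 (0.810 to 0.850) and cytosolic ribosomal protein genes at 1.13 (1.10 to 1.17). Malat1 and mitochondrial shares vary with RNA quality and with how much cytoplasm a droplet captured, and their part in the other ratios was not tested. Of 20 DNA replication genes only Pcna had enough UMIs to be tested, and it was at 1.59 unthinned (0.936 to 2.60). The list's summed ratio was 0.718 unthinned (0.552 to 0.921) but 0.910 at equal depth (0.529 to 1.47), and at equal depth it was 1.38 (0.569 to 2.90) among cells with Xist UMIs only and 0.555 (0.111 to 1.72) among those with Y-linked UMIs only.

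**Figure D4:**
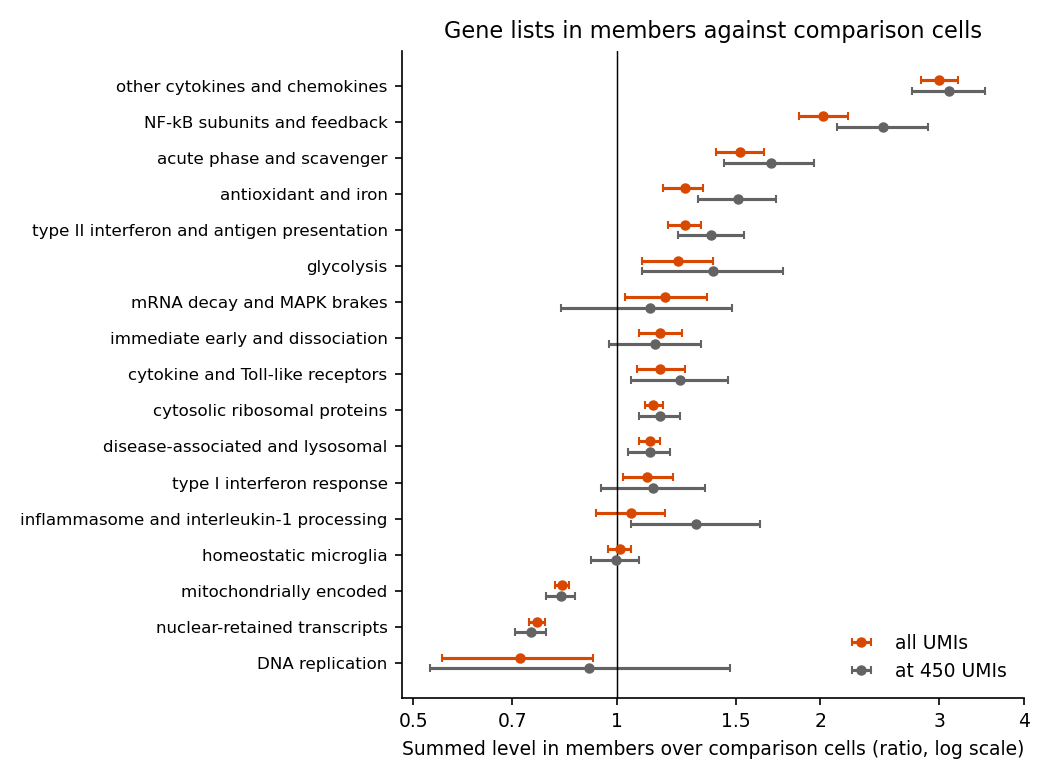
Summed level of each gene list in members over comparison cells (x axis, ratio, log scale) with exact 95% counting intervals, for all UMIs (orange) and for cells thinned to 450 UMIs (grey). Other cytokines and chemokines and the NF-kB list lie at 3.0 and 2.02, homeostatic microglia at 1.01 and nuclear-retained transcripts at 0.761.

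The genes with the lowest ratios rested on few counts. Of the 10 lowest at equal depth, 9 had 0 thinned UMIs in members (Atp6ap1, Bhlhe41, Gtf2a2, Ing2, Nlrp1b, Nudcd3, Pmepa1, Tlk1 and Zbtb1), against 51 to 67 in comparison cells. Unthinned, each of these 9 was counted in members, at ratios from 0.324 to 0.813, and with another random seed for the thinning the log2 ratio of Atp6ap1 was -0.20, that of Ing2 -0.02 and that of Nudcd3 -0.44. Tlk1, a chromatin kinase gene, had 7 UMIs in 6 members and was at 0.324 (0.128 to 0.687), Gtf2a2 at 0.437 (0.195 to 0.857) and Bhlhe41, a transcription factor gene, at 0.531 (0.284 to 0.918).

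Levels outside the rule were also read by the sum of the rule genes. Unthinned Ccl12 stood at 1568 CPM in cells with a sum of 0, 2018 CPM at 1 to 2 (237 cells), 4314 CPM at 3 to 5 (49 cells), 5336 CPM at 6 to 10 (22 cells) and 14137 CPM above 10 (9 cells, 12442 to 15998). In this last class 1 cell held 113 of the 251 Ccl12 UMIs, and without it the level was 9399 CPM (7897 to 11105). The barcode 1 base from that cell, with 33 Ccl12 UMIs, is among the 22 cells of the class before. Unthinned Gpr84 went from 553 to 937, 1393, 1793 and 2253 CPM, and Plek, a signalling protein of leukocytes, from 717 to 898, 1206, 1605 and 2084 CPM. At 450 UMIs the order was not steady for either gene, with Gpr84 at 526, 985, 1814, 2828 and 1728 CPM and Plek at 674, 919, 907, 2121 and 2963 CPM. Unthinned Nfkbia stood at 967, 1275, 1746, 2481 and 2253 CPM, so that the last step lay within the counting error of the one before. Ccl2 stood at 248, 399, 738, 521 and 1521 CPM, without a steady order. Malat1 went from 46052 to 41283, 35967, 35728 and 28612 CPM, whereas the homeostatic list stayed between 17370 and 19150 CPM. Median depth went from 916 UMIs at a sum of 0 to 2055 UMIs above 10, and the 450 UMI readout gave 1630, 2082, 3946, 6970 and 12840 CPM for Ccl12.

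**Figure D5:**
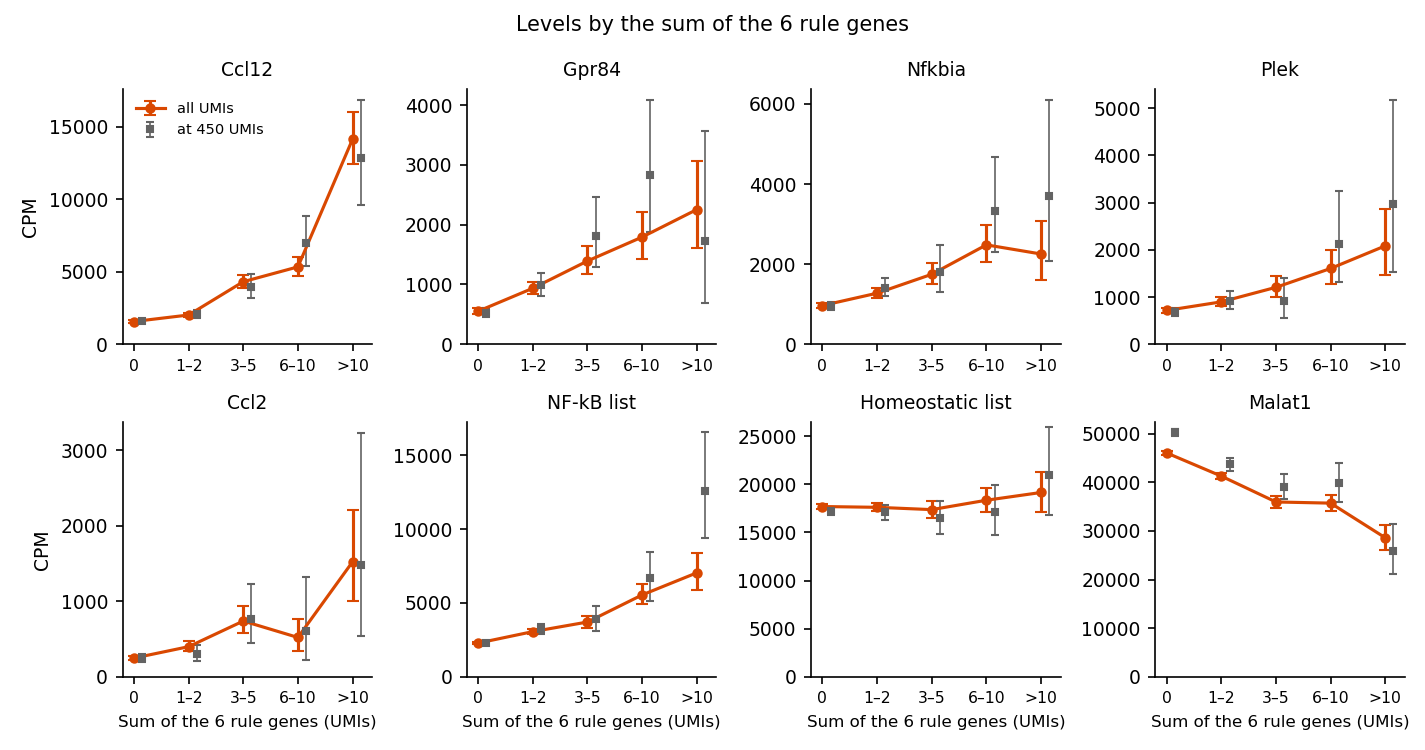
Level (y axis, CPM) of 5 single genes, the NF-kB list, the homeostatic list and Malat1 in cells grouped by the sum of the 6 rule genes (x axis; 870, 237, 49, 22 and 9 cells), from all UMIs (orange) and at 450 UMIs per cell (grey), with exact 95% counting intervals. Ccl12 goes from 1568 to 14137 CPM and the homeostatic list stays between 17370 and 19150 CPM.

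Members led by interleukins and members led by chemokines with Tnf were set against comparison cells and against each other. Unthinned, Ccl12 was 4.05-fold above comparison cells in the 40 interleukin-led members and 3.41-fold in the 35 chemokine-led ones, Gpr84 3.31-fold and 2.37-fold, Nfkbia 2.25-fold and 1.94-fold and Ccl2 2.52-fold and 3.45-fold. Between the subsets, interleukin-led over chemokine-led, the unthinned ratio was 1.18 for Ccl12 (1.04 to 1.36), 1.40 for Gpr84 (1.07 to 1.83), 1.16 for Nfkbia (0.922 to 1.46) and 0.730 for Ccl2 (0.489 to 1.08). At equal depth Ccl12 stood at 5889 CPM in interleukin-led and 5905 CPM in chemokine-led members, Gpr84 at 2333 and 1968 CPM, Nfkbia at 2889 and 2095 CPM and Ccl2 at 778 and 698 CPM, so that the subsets lay the other way round than unthinned for Ccl12 and Ccl2. Tlr2 was at 711 CPM in interleukin-led and 355 CPM in chemokine-led members unthinned (ratio 2.00, 1.24 to 3.28), but at 611 and 698 CPM at equal depth, from 11 UMIs each. Cd14 was at 1038 and 539 CPM unthinned (1.93, 1.31 to 2.87) and at 1333 and 825 CPM at equal depth. The type I interferon list was lower in interleukin-led members, at 3100 CPM against 4862 CPM in chemokine-led members unthinned (0.637, 0.538 to 0.754) and 2833 against 5460 CPM at equal depth. The antioxidant and iron list was likewise lower, at 5673 against 7336 CPM (0.773, 0.680 to 0.879) and 6500 against 8317 CPM at equal depth. Interleukin-led members were shallower, with a median of 1400 UMIs against 1852 UMIs, and 7.54% of the interferon UMIs of all members came from 1 cell. The 8 members with Il12b had the highest ratios over comparison cells of the subsets by single rule gene, 7.16-fold for Ccl12 and 4.11-fold for the NF-kB list unthinned, where the other 5 rule genes gave between 2.53-fold and 5.61-fold for Ccl12 and between 2.05-fold and 2.56-fold for the NF-kB list. These subsets overlap and were not tested against each other.

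Members were found among cells with Xist and among cells with Y-linked UMIs. Of cells that had Xist UMIs but none of the Y-linked genes, 32 of 453 under the Saa3 limit were members (7.06%, 4.88 to 9.83), as were 14 of 171 cells that had Y-linked but no Xist UMIs (8.19%, 4.55 to 13.4). Cells with both kinds of UMI were members in 7 of 55 cases (12.7%, 5.27 to 24.5), and cells with neither in 27 of 508 (5.31%, 3.53 to 7.64). Unthinned, Ccl12 was 3.80-fold higher in members among the cells with Xist only and 2.51-fold among those with Y-linked genes only, Gpr84 3.04-fold and 3.37-fold, Ccl2 2.54-fold and 4.70-fold, Nfkbia 2.25-fold and 1.73-fold, and the NF-kB list 2.13-fold and 1.81-fold. The homeostatic list stood at 1.07 and 1.08. The direction was shared by both kinds of cell for these genes unthinned. Nlrp3, from few UMIs, lay lower in members with Y-linked UMIs only unthinned but higher at equal depth. Marco lay lower in members of both kinds unthinned, as given above. At equal depth the 14 members with Y-linked UMIs only gave Ccl12 1.72-fold (0.996 to 2.83) and Nfkbia 1.15-fold (0.444 to 2.54).

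Members with and without Saa3 UMIs were also read apart. Of the members, 55 had 0 Saa3 UMIs and 25 had 1 to 4. Members with and without Saa3 were 3.72-fold and 3.58-fold above comparison cells for Ccl12, 2.71-fold and 3.01-fold for Gpr84, and 1.53-fold and 2.30-fold for the NF-kB list. The type I interferon list lay opposite ways, at 0.838 (0.716 to 0.975) with Saa3 and 1.27 (1.15 to 1.40) without, and at 0.793 and 1.29 at equal depth. The antioxidant and iron list was at 1.14 with and 1.32 without Saa3 unthinned, and at 1.04 (0.780 to 1.35) and 1.72 (1.49 to 1.99) at equal depth. Among the Saa3-high cells, which are not members, the 32 with a sum of 3 or more were set against 147 with a sum of 0. There Ccl12 was 1.63-fold higher unthinned and 2.20-fold at equal depth (1.56 to 3.06), the NF-kB list 1.71-fold and 2.39-fold (1.78 to 3.19), and Gpr84 1.89-fold and 1.48-fold (0.833 to 2.52). The difference between these ratios and those of the members was not tested.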

How the data were processed

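Microglia of 1 wildtype and 1 PARK7/DJ-1 KO library (LPS, Drop-seq) were analysed. The authors deposited raw counts, UMIs per gene and barcode without normalisation; the submitters' processing notes name bcl2fastq 2.0, STAR and the builds mm9 and mm10, and which build the counts use and whether strand was used are not given in the sources used here. Missing values were read as 0. Barcodes with at least 500 UMIs and 100 genes were cells; doublets were left in and no caller was run. Members, comparison cells and gene lists were chosen with earlier results of these data known. Rule genes and Saa3 were removed, cells thinned without replacement to 450 UMIs, and genes with at least 30 thinned UMIs compared by ratios of summed UMIs with 95% intervals (scipy 1.17.1 and numpy 2.4.6 under Python 3.11.15; tested on simulated data). Named genes were the rule genes and the 10 highest and 10 lowest ratios among genes with at least 50 thinned UMIs. From the 27 written lists, leaving out those of other cell types, genes past 1.5-fold or among the 4 with most UMIs were also named. Genes outside this rule (Ccl7, Cxcl10, Cxcl13, Tnfaip3, Tlr4, Park7 and a few list members named for their role) were chosen after their values were seen. The study's MAST test was not run, since cells of 1 library are not replicates. Promoters came from RefSeq. Some genes are not reported here.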

Additional observations from a re-analysis of the deposited data

Results flagged for a closer look

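Barcodes too shallow to count as cells were neither members nor comparison cells. In the wildtype library 8569 such barcodes held 379 UMIs of the 6 rule genes, 353 CPM (318 to 390.0), against 115 CPM (80.3 to 160.4) over 9512 barcodes of the KO library. Only 3 of the wildtype barcodes, with a median of 405 UMIs, reached a sum of 3 or more, as did 2 of the KO barcodes. The level was thus spread over many barcodes, and what part of it was free RNA was not tested.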

How the results depend on the processing

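No paired analysis was possible because each genotype had 1 library. The share of members (6.74%) was 10.7% among cells with at least 1000 UMIs, 3.37% with a sum of at least 5 and 2.19% with the sum taken after thinning to 500 UMIs. The 520 higher and 792 lower genes became 211 and 345 unthinned, 272 and 241 when each member was paired with the comparison cell nearest in depth, 69 and 129 with at least 100 thinned UMIs, 199 and 286 in the Xist-positive female cells and 47 and 77 in the Y-positive male cells. With no filter beyond 1 thinned UMI in each group, 2470 genes were higher. These settings change how many genes are tested or how many UMIs each rests on. Of the named genes, Pmepa1 turned from a log2 ratio of -3.63 to 0.02 when cells were thinned to 1000 UMIs and to 0.14 with the thinned rule sum of at least 2, and Zbtb1 from -3.30 to 0.01 with another random seed; the members had 0 thinned UMIs of either gene. Of 221 log2 ratios of the 17 lists under the alternatives, 184 stayed within the counting interval and 0 reversed a called direction, and of 322 ratios of 23 named genes 280 stayed within it. A reversal could be called only for lists and genes past 1.5-fold in the main setting. Of the other lists, type I interferon, inflammasome, glycolysis, mRNA brakes, DNA replication and homeostatic genes changed sign under at least 1 alternative. Alternatives chosen after seeing the data were those without the shallower barcode of each pair 1 base apart, without the 5 members with the highest sums, without the top member of a gene, without the cell with most Ccl12 UMIs in the highest class, and with the filter on comparison cells alone. Without those 5 members the log2 ratio of the other cytokines and chemokines went from 1.63 to 1.34 and that of the NF-kB list from 1.31 to 1.04. Depth is a limit: a gene at 30 UMIs in all rests on a few UMIs in members, so that single calls of lower genes are not firm.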
